A study of Mus musculus with 9 samples.

Results

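The genes described here are the RANKL system and a core set of osteoclast genes, 10 in all: the ligand Tnfsf11 (RANKL), its decoy receptor Tnfrsf11b (osteoprotegerin, OPG), its receptor Tnfrsf11a (RANK), the transcription factor Nfatc1, and the osteoclast genes Dcstamp, Ocstamp, Oscar, Atp6v0d2, Acp5 and Ctsk. They were chosen by name, and all 10 were found among the 27179 genes of the deposited table. RNA was sequenced from cells sorted out of the fibrous tissue that forms around a tibial implant in mice, 2 weeks after surgery. The sort kept cells that lacked blood lineage markers (Lin-) and carried the red reporter tdTomato. The 4 control libraries came from Lepr-CreERT;Tdtomato mice and the 5 conditional knockout (cKO) libraries from Lepr-CreERT;Tdtomato;Grem1fl/fl mice, so both groups carried the Cre and the reporter, and mice of both groups received tamoxifen. The Cre is driven by the leptin receptor gene Lepr and in the cKO mice removes Grem1, which encodes a secreted antagonist of bone morphogenetic proteins, in cells where it has been active. The controls were littermates. The age of the mice is not given in the sources used here, and the labels do not say whether a library is 1 animal or a pool, so a p-value here reflects only how much the libraries themselves vary.

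RANKL is a membrane-bound or shed cytokine made by stromal cells, osteoblast-lineage cells, hypertrophic chondrocytes and some lymphocytes. It binds RANK on precursors of the monocyte and macrophage lineage, and signalling through TRAF6, NF-kB and AP-1 induces NFATc1, which switches on the genes of cell fusion and bone resorption. OPG, secreted by the same stromal cells, captures RANKL before it reaches RANK, so the balance of ligand and decoy sets how many osteoclasts form. Peri-implant fibrous tissue is of interest because resorption at the bone surface can loosen an implant. A cell gate that is negative for blood lineages should hold the stromal side of this system and few osteoclast precursors.

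Facts of the libraries bear on every value below. Recovered reads came to between 44.8 and 53.4 M in the controls, to between 76.3 and 87.2 M in cKO replicates 1 to 4, and to 43.5 M in cKO replicate 5. Depth above 60 M reads therefore cannot be told apart from the knockout in 4 of the 5 cKO libraries. Grem1 ranged from 356 to 736 normalized counts among controls and from 46.4 to 133 among cKO libraries (log2 difference -2.72, limma adjusted p = 0.00781; exact two-sided permutation p = 0.00794, the smallest this design allows). Lepr itself varied from 935 to 40594 normalized counts among controls and from 1347 to 15785 among cKO libraries. Between the groups Lepr differed by 0.07 on the log2 scale (limma adjusted p = 0.976). Of all 15832 genes that passed the filter on low values, 1184 (7.48%) passed the test for genotype, 730 (4.61%) higher and 454 (2.87%) lower in cKO.

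Upstream sequences were matched by symbol for 5 of the 10 genes, Tnfsf11, Tnfrsf11a, Ctsk, Oscar and Acp5, the last with 3 start sites. Tnfrsf11b, Atp6v0d2, Dcstamp and Ocstamp were not matched, and Nfatc1 is not shown. The windows are 250 bases long and end at the base before the annotated start, taken from RefSeq on GRCm38.p6, an older build than the mm39 of the counts. Those of Tnfsf11 and Ctsk are printed because these genes stand at opposite ends of the system, the stromal ligand and the protease made in quantity by resorbing cells. Capitals mark the core of the NFAT motif (GGAAA, or TTTCC on the other strand) and the TATA box letters (TATAA, or TTATA on the other strand).
Tnfsf11, chr14:78308044-78308293, minus strand: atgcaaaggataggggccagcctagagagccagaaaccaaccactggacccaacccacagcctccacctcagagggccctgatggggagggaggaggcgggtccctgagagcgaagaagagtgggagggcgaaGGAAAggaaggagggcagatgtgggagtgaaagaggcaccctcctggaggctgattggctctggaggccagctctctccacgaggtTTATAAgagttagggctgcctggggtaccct
Ctsk, chr3:95498960-95499209, plus strand: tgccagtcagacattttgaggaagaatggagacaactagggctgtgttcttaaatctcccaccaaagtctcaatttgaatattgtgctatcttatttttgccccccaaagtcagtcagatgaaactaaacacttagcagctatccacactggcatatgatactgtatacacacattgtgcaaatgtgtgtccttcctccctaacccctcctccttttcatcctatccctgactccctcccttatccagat
In the Tnfsf11 window the NFAT core begins 117 bases before the start, and TTATA and TATAA overlap, beginning 31 and 30 bases before it. The Ctsk window holds neither. The NFAT core was also found 3 times in the Oscar window, 1, 1 and 2 times in the 3 Acp5 windows, and 0 times in that of Tnfrsf11a. These letters are common, since 55.6% of the 32851 promoter windows of this length hold the NFAT core and 22.8% the TATA box letters. An AP-1 motif (TGANTCA, the same on both strands) was in 0 of the 7 windows of these genes and in 6.75% of all windows. A RUNX motif (TGNGGT, or ACCNCA on the other strand) was found 2 times in the Tnfsf11 window, in a pair of the Acp5 windows, and in 40.1% of all windows. A match is a run of letters and no evidence of binding.

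Among the 10 genes, Nfatc1 was lower in the cKO libraries and was the only one of the 7 tested to pass the limma test over all genes, beside 7.48% of all genes in either direction and 2.87% in that direction. The other 6 tested were Tnfsf11, Tnfrsf11b, Acp5 and Ctsk, with fitted differences below 0, and Tnfrsf11a and Atp6v0d2, with differences above 0, and none of these passed. Dcstamp, Ocstamp and Oscar did not pass the filter on low values, and in a limma fit with no filter none of them passed. The median log2 difference of the 7 tested genes was -0.53, against -0.0039 over all genes tested. At an unadjusted p under 0.05, 3 of the 7 passed, beside 26.9% of all genes. A single library, cKO replicate 5, lay within the control range for Tnfsf11 and Nfatc1 and above every control for Acp5 and Ctsk. In the other 4 cKO libraries these 4 genes were below every control, an arrangement seen in 12.3% of all genes.

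**Figure D1:**
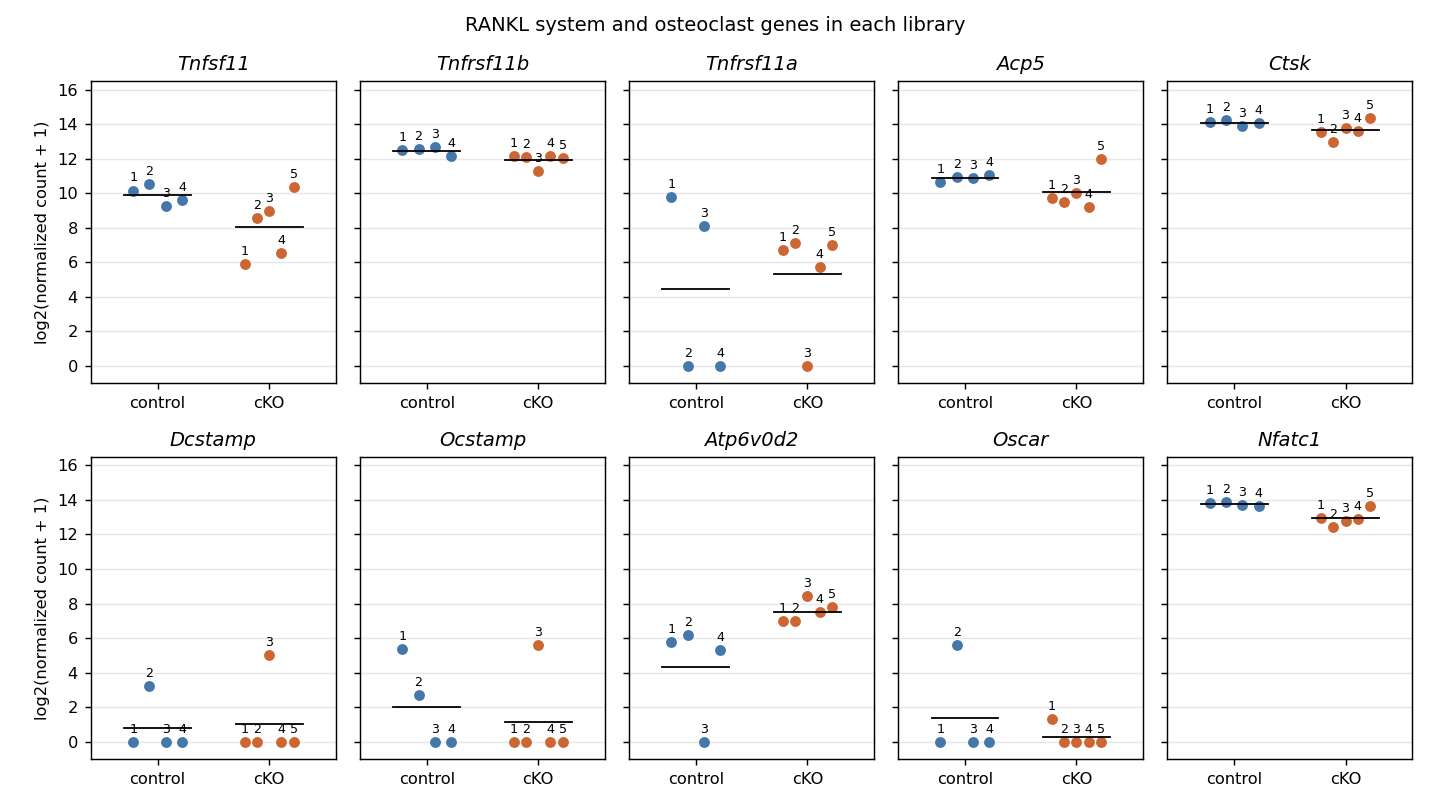
Levels of the 10 genes as log2(normalized count + 1) (vertical axes), 1 point per library numbered by replicate, with the 4 controls in blue, the 5 cKO libraries in orange and a line at each group's mean. For Tnfsf11, Acp5, Ctsk and Nfatc1 cKO replicate 5 sits with or above the controls while cKO replicates 1 to 4 lie below them, and Dcstamp, Ocstamp and Oscar are at 0 in most libraries.

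The ligand Tnfsf11 was the most variable of the abundant genes. Normalized counts of the 4 controls, in replicate order, were 1143, 1457, 605 and 774. Those of the 5 cKO libraries were 58.9, 378, 499, 91.0 and 1292. The groups overlap because of cKO replicate 5, which exceeds 3 of the 4 controls, while cKO replicates 1 and 4 are the lowest of all. The control mean was 995 ± 381 (SD, n = 4), and the cKO mean of 464 ± 499 (SD, n = 5) was 2.14-fold lower. On the scale of log2(normalized count + 1) the difference was -1.82 (SE 0.82), with an unadjusted limma p of 0.0502 and an adjusted p of 0.186. It was smaller in the count tests: edgeR on the recovered reads gave -1.11 (adjusted p = 0.425), and the authors' deposited table gives -1.10 (DESeq2 adjusted p = 0.346). Without cKO replicate 5 the mean of the other 4 was 257 ± 216 (SD, n = 4), 3.87-fold below the controls, and limma gave -2.39 (SE 0.69, adjusted p = 0.0382).

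The decoy receptor Tnfrsf11b was more abundant and steadier. The 4 controls held 5709.7, 6076, 6652 and 4565 normalized counts, and the 5 cKO libraries 4649, 4442, 2455, 4480.5 and 4267. The lowest control lies just below the highest cKO library, so the groups overlap by 1 library, and cKO replicate 3 stands well below the rest. The control mean was 5751 ± 880.3 (SD, n = 4) and the cKO mean 4059 ± 907 (SD, n = 5), 1.42-fold lower. Limma gave a log2 difference of -0.53 (SE 0.20, adjusted p = 0.127), which did not pass. For this gene cKO replicate 5 was with the other cKO libraries, unlike for the ligand.

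Because ligand and decoy come from the same RNA sample, their ratio can be read within each library. Tnfsf11 came to 20.02%, 24.0%, 9.10% and 17.0% of the Tnfrsf11b count in the 4 controls. In the 5 cKO libraries it came to 1.27%, 8.52%, 20.3%, 2.03% and 30.3%. The highest and the lowest ratios of the 9 libraries were both in the cKO group. Replicate 3 of that group, within the control range for the ratio, had the lowest Tnfrsf11b of all libraries and a Tnfsf11 count below every control. The mean was 17.5% ± 6.30 (SD, n = 4) in controls and 12.5% ± 12.5 (SD, n = 5) in cKO. The mean log2 ratio was -2.60 in controls and -3.90 in cKO, a difference of -1.30 that is less than the SD of 2.01 among the cKO libraries. No test was made on the ratio.

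**Figure D2:**
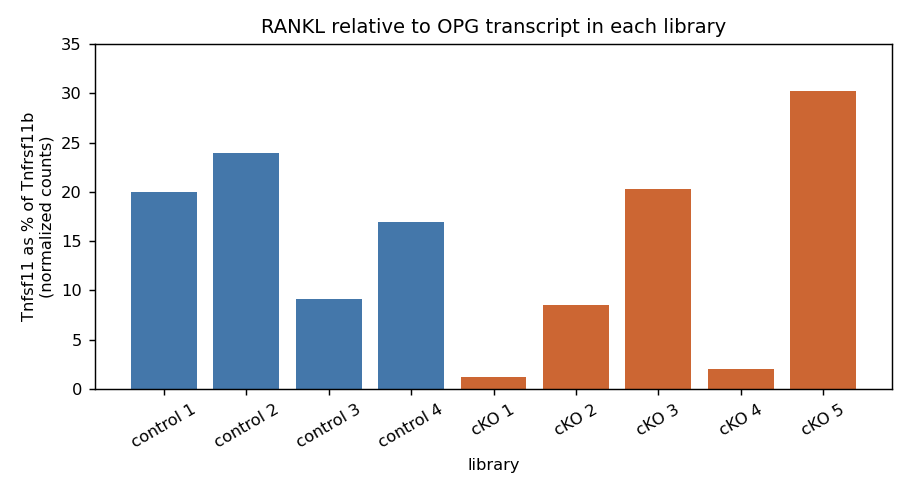
Tnfsf11 as a percentage of Tnfrsf11b normalized counts (vertical axis) in each of the 9 libraries (horizontal axis), controls in blue and cKO in orange. Controls range from 9.10% to 24.0%, and the cKO libraries from 1.27% to 30.3%.

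The receptor Tnfrsf11a was patchy. Its normalized counts were 886, 0, 277 and 0 in the 4 controls, and 106, 137, 0, 52.0 and 128 in the 5 cKO libraries. Control replicate 1 alone holds more than all other libraries together, and 3 of the 9 libraries have no read. Among the 2383 tested genes whose mean lies within 2-fold of this one, 5.29% have 3 or more libraries without a read. The mean was 291 ± 418 (SD, n = 4) in controls and 84.7 ± 57.8 (SD, n = 5) in cKO, 3.43-fold lower, while the fitted log2 difference was 0.84 (SE 2.35, limma adjusted p = 0.847), of the other sign. On the log scale the 2 controls without a read weigh heavily, and the difference was -0.65 without control replicate 2 or without control replicate 4. No direction can be given for this gene. The endothelial marker sum was high in the same pair of controls, 91962 in replicate 1 and 115890.0 in replicate 3 against 4198 and 6541 in replicates 2 and 4, and 3737 to 7298 in cKO. The LEPR stromal marker sum was also highest in this pair, 194670 and 347372 against 119946 and 91154 in control replicates 2 and 4. Cxcl12 held 112676 and 228864 of the sums in this pair. Pdgfra and Pdgfrb were lower in this pair than in control replicates 2 and 4, and the other markers of the list were higher. The endothelial and LEPR sums were both higher in control replicate 3, whereas Tnfrsf11a was higher in control replicate 1. The part of endothelial or other stromal RNA in the Tnfrsf11a values was not tested.

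Nfatc1, the transcription factor at the centre of osteoclast formation, is also expressed in endothelial, muscle and stromal cells. The 4 controls were at 14628, 14995, 13401 and 12858 normalized counts. The 5 cKO libraries were at 7877, 5459, 6991, 7675 and 12940.3. The first 4 cKO libraries are all far below the controls, and cKO replicate 5 falls inside the control range. The control mean was 13971 ± 1007 (SD, n = 4) against 8188 ± 2821 (SD, n = 5) in cKO, and limma gave a log2 difference of -0.83 (SE 0.21), a 1.78-fold fall with an adjusted p of 0.0445. The call was lost when any 1 of the 4 controls or of cKO replicates 1 to 4 was left out (adjusted p 0.0695 to 0.105), and without cKO replicate 5 the difference was -1.01 (SE 0.13, adjusted p = 0.0012). With no filter on low values limma's adjusted p was 0.0552. EdgeR on the recovered reads, which called 0 of the 7 tested members and 4.96% of all genes, gave an adjusted p of 0.0691, and the authors' deposited table gives a log2 fold change of -0.77 with an adjusted p of 0.0139.

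Atp6v0d2, the d2 subunit of the vacuolar proton pump and a fusion gene of osteoclasts, was the gene with the opposite pattern. It was at 54.0, 71.7, 0 and 39.1 normalized counts in the 4 controls, against 125, 124, 346, 179 and 219.5 in the 5 cKO libraries. Every cKO library lies above every control, cKO replicate 5 included, and this was the only one of the 7 tested genes whose groups did not overlap. Over all genes tested, 6.82% lay apart in this way with cKO higher and 4.6% with cKO lower, the latter 0 of the 7. The control mean was 41.2 ± 30.5 (SD, n = 4) against 199 ± 91.5 (SD, n = 5) in cKO, a ratio of 4.82. The fitted log2 difference of 3.21 (SE 1.17, limma adjusted p = 0.113) did not pass, and it was 1.77 (adjusted p = 0.0938) without control replicate 3, the library with no read. In the authors' deposited table the log2 fold change is 2.27, with an adjusted p of 0.0652. At these levels all 4 controls together rest on 120 reads of this gene and the 5 cKO libraries on 1278.

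Acp5 encodes tartrate-resistant acid phosphatase, the classical histochemical marker of osteoclasts. Controls were at 1579, 2002, 1856 and 2099 normalized counts, and the cKO libraries at 845, 725, 1035, 579 and 4011. The controls are tight, cKO replicates 1 to 4 are all below them, and cKO replicate 5 is above every other library. The control mean was 1884 ± 226 (SD, n = 4) against 1439 ± 1447 (SD, n = 5) in cKO, with a log2 difference of -0.79 (SE 0.48, limma adjusted p = 0.320). Without cKO replicate 5 the cKO mean was 796 ± 193 (SD, n = 4), 2.37-fold lower, and limma gave -1.27 (SE 0.20, adjusted p = 0.0029). Of the bases in Acp5 exons, 6.75% also lie in exons of 6530413G14Rik on the opposite strand, and reads there cannot be assigned with certainty.

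Ctsk encodes cathepsin K, the collagen-degrading protease of osteoclasts, which fibroblasts and chondrocytes also make. It had the highest mean count of the 10, with 18118, 19162, 15446 and 17063 normalized counts in the 4 controls. The 5 cKO libraries were at 12182, 8072, 14191, 12540.4 and 20609. As for Acp5, cKO replicate 5 is the highest of all 9 libraries and the other 4 are below every control. The control mean was 17447 ± 1586 (SD, n = 4) against 13519 ± 4559 (SD, n = 5) in cKO, and the log2 difference was -0.43 (SE 0.23, limma adjusted p = 0.252). Without cKO replicate 5 the difference was -0.60 (SE 0.17, adjusted p = 0.0376), and without cKO replicate 2 it was -0.26 (adjusted p = 0.387). In the fit without cKO replicate 5, Tnfsf11, Acp5, Ctsk and Nfatc1 all passed, 4 of the 7 tested. Beside this, 10.1% of all genes were called lower and 22.5% in either direction. When any 1 of the other 8 libraries was left out instead, limma's adjusted p was 0.199 to 0.336 for Tnfsf11, 0.366 to 0.526 for Acp5 and 0.284 to 0.410 for Ctsk, and none of the 3 passed.

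The fusion proteins and the co-stimulatory receptor were close to the limit of detection. Dcstamp, which encodes the fusion protein DC-STAMP, had 6 reads in control replicate 2 (8.28 normalized counts) and 46 in cKO replicate 3 (31.2), and 0 elsewhere. Ocstamp, which encodes its relative OC-STAMP, had 30 reads in control replicate 1 (40.5), 4 in control replicate 2 (5.52) and 70 in cKO replicate 3 (47.5). Both fusion genes thus had their highest value in cKO replicate 3, which also held the most Atp6v0d2 and no read of Tnfrsf11a. Oscar, a collagen-binding receptor that co-stimulates osteoclast precursors, had 34 reads in control replicate 2 (46.9) and 2 in cKO replicate 1 (1.47, exact 95% Poisson interval 0.178 to 5.32). A library with no read allows up to 2.02 to 4.19 normalized counts, which is what 3 reads are worth in it, for counting error only. This floor and the interval treat reads as independent. All read counts of Dcstamp, Ocstamp and Oscar are even. If both reads of a pair were counted, the interval is too narrow and the floor too low, which was not tested. With reads in 2 or 3 libraries of 9, no difference between the groups was detectable for these genes at this depth.

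**Figure D3:**
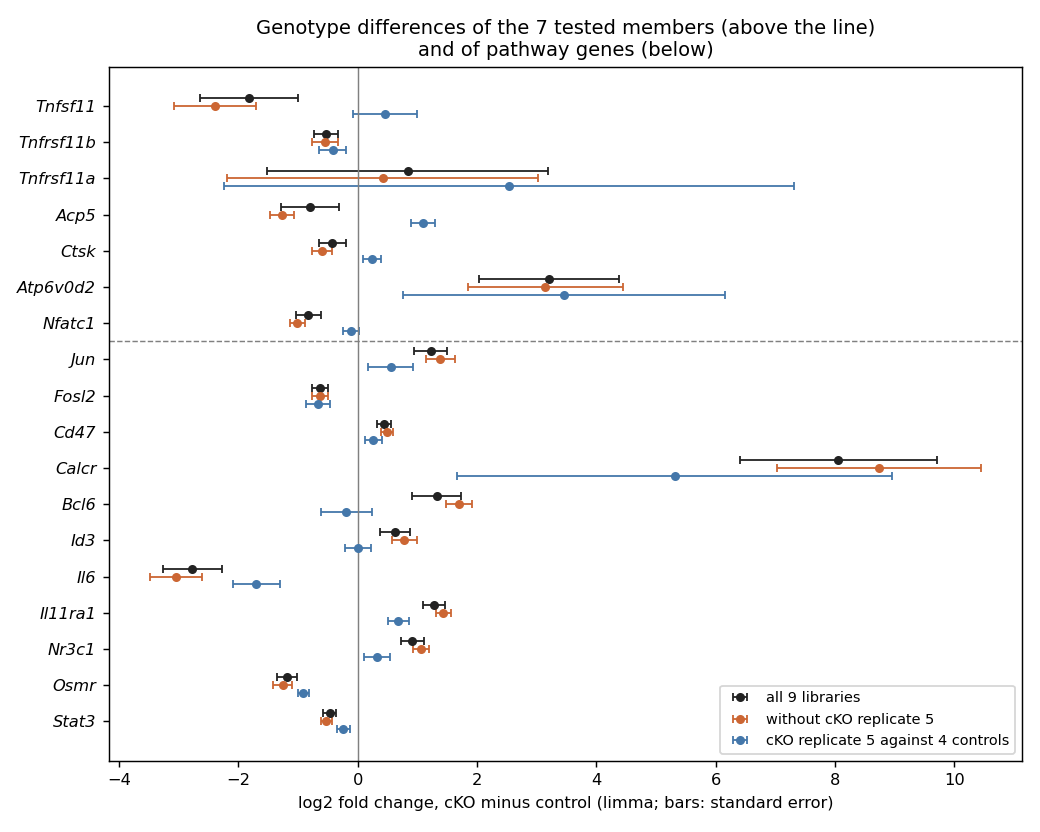
Fitted log2 differences (horizontal axis, cKO minus control) with bars of 1 standard error for the 7 tested genes (above the dashed line) and the named pathway genes (below it), with all 9 libraries (black), without cKO replicate 5 (orange) and for that replicate against the 4 controls (blue). Leaving out that library takes Tnfsf11 from -1.82 to -2.39 and Acp5 from -0.79 to -1.27, and leaves Atp6v0d2 above 0.

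Levels of different genes can be compared only per length, as normalized counts per kilobase of exon. In the controls the order was Ctsk (11539 ± 1049, SD, n = 4), Tnfrsf11b (2041 ± 312), Nfatc1 (1870.5 ± 135), Acp5 (928 ± 111), Tnfsf11 (445 ± 170.5), Tnfrsf11a (48.6 ± 69.8), Atp6v0d2 (15.2 ± 11.2), Oscar (6.35 ± 12.7), Ocstamp (3.15 ± 5.34) and Dcstamp (0.777 ± 1.55). Tnfrsf11b and Nfatc1 overlapped, and so did every pair of neighbours from Tnfrsf11a downward, whereas Ctsk, Nfatc1, Acp5 and Tnfsf11 were each separate from the next gene below. By mean, the first 5 places in cKO were the same, with Ctsk at 8941 ± 3015 (SD, n = 5) and Tnfsf11 at 207 ± 223. Within the 5 cKO libraries Tnfrsf11b was above Nfatc1 in 3, Nfatc1 above Acp5 in 4, and Tnfsf11 above Atp6v0d2 in 3. Atp6v0d2 at 73.2 ± 33.7 stood above Tnfrsf11a at 14.2 ± 9.66 in all 5 libraries. The mean of the decoy was above that of the ligand per length in both groups.

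Markers of other cell types were counted because mature osteoclasts and their precursors belong to the blood lineages that the sort removes. In bulk RNA, fewer cells of a type and less RNA per cell cannot be told apart. All 8 stromal markers of the LEPR list had reads in all 9 libraries, and their summed level was 91154 to 347372 normalized counts among controls against 79488 to 178640 among cKO libraries. Pdgfra was above every control in all 5 cKO libraries and Pdgfrb below every control, and the groups overlapped for the others. Over all genes tested, 11.4% do not overlap in either direction. The 12 macrophage and monocyte markers summed to 31147 to 67454 in controls, to 9254, 5843, 11679 and 19315 in cKO replicates 1, 3, 4 and 5, and to 123292 in cKO replicate 2. Of these markers 7 had reads in all 9 libraries, C1qa and C1qb were at 0 in cKO replicates 1, 3, 4 and 5, and Lyz2 held the largest share of the sum in every library. In cKO replicate 2 Cd14 (778) and Mrc1 (1.35) were below every control, Adgre1 and Fcgr1 inside the control range, and the other markers above every control. In cKO replicate 5 Cd14, Cd68 and Fcgr1 were inside the control range and the other markers below it. Cartilage markers summed to between 1767208 and 4084932 in controls, to between 135575 and 391525 in cKO replicates 1 to 4, and to 1081006 in cKO replicate 5. For this sum cKO replicate 5 was the nearest of its group to the controls, but stayed below them. The same held for Col2a1, Acan, Hapln1, Ihh and Matn3. In cKO replicate 5 Sox9 (17153) fell inside the control range. So did Col10a1 (614), but for that gene all 5 cKO libraries lay within the control range of 0 to 10380. Comp was at 191743 in cKO replicate 5, further below the controls than in cKO replicates 1 (284870) and 4 (265652). Skeletal muscle markers summed to 106 to 1020.1 in controls and 64381 to 601161 in cKO, and osteoblast and osteocyte markers to 402765 to 533254 and 221453 to 624720, with Sost at 0 in all 9 libraries. Lymphocyte markers, whose cells can also make RANKL, summed to 823 to 1873 in controls and 225 to 5419 in cKO, the highest in replicate 2, and dendritic cell markers to 702 to 1688 and 545 to 1163. In cKO replicate 2, with the highest macrophage sum, Acp5, Ctsk and Nfatc1 were at 725, 8072 and 5459. The part of these other cells in the values of Tnfsf11, Acp5, Ctsk and Nfatc1 was not tested.

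**Figure D4:**
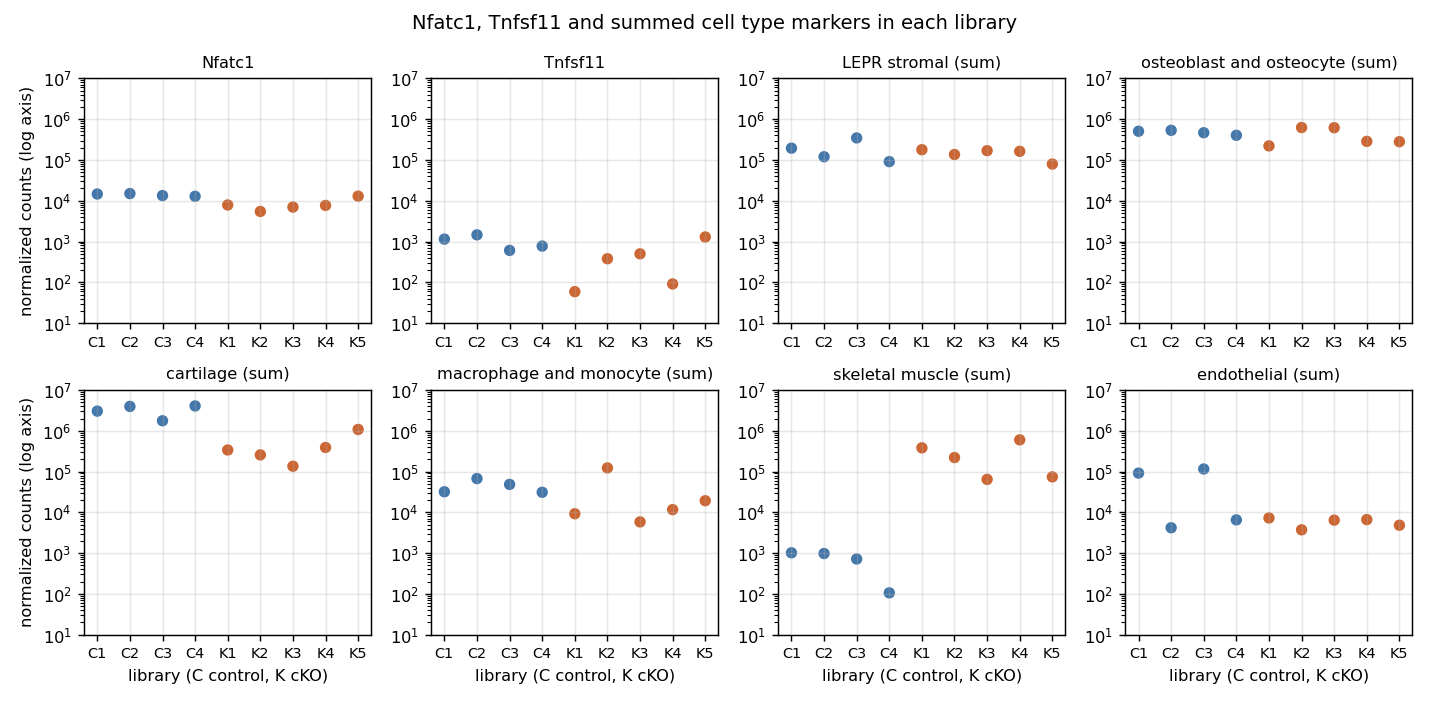
Normalized counts (vertical axes, log scale) of Nfatc1 and Tnfsf11 and the summed counts of 6 marker lists in the 4 controls (C, blue) and the 5 cKO libraries (K, orange). Cartilage sums are lower in all cKO libraries, with replicate 5 at 1081006 the nearest to the controls, muscle sums are higher in all of them, and the macrophage sum of cKO replicate 2 stands at 123292.

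Around the 10 genes, others of the pathway were read in 6 lists. Of the 121 that could be tested 9 passed, against 7.48% of all genes. Among 27 genes of RANK signalling and osteoclast transcription, Jun was higher and Fosl2 lower, and the median log2 difference was -0.16. Both encode subunits of the AP-1 factor that acts with NFATc1. Fosl2 was at 2741, 3166, 3708 and 2916 normalized counts in the 4 controls, against 2104, 2018, 2244, 1747 and 1958 in the 5 cKO libraries. These groups do not overlap, and Fosl2 fell by 0.63 on the log2 scale (SE 0.13, limma adjusted p = 0.0213). Jun held 38775, 25641, 42728 and 24775 in controls and 84863, 83913, 116781, 59605 and 47029 in cKO, again without overlap (1.22, SE 0.28, adjusted p = 0.0319). Without cKO replicate 5 this list had 4 genes higher and 4 lower, and 35 genes of all 6 lists passed in place of 9. In that comparison 22.5% of all genes passed, 12.4% higher and 10.1% lower. The Jun call was lost without any 1 of control replicates 1, 2 and 4 or of cKO replicates 1 to 4, and the Fosl2 call without control replicate 2, 3 or 4 or cKO replicate 1 or 4 (adjusted p up to 0.0908 and 0.0622).

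Of the receptors and adaptors of osteoclast precursors, 16 of 17 were tested, 1 was higher and 0 lower, and the median was -0.37. The one was Cd47, a widely expressed surface protein that signals to phagocytes, at 20085 ± 1661 (SD, n = 4) in controls and 27335 ± 2676 (SD, n = 5) in cKO (log2 difference 0.44, SE 0.12, limma adjusted p = 0.0472). Its call was lost without any 1 library other than cKO replicate 5 (adjusted p 0.0685 to 0.121), with edgeR (0.0674) and with no filter on low values (0.0618). Csf1r, the receptor for M-CSF on osteoclast precursors and a member of the macrophage list as well, was uneven, with 1459, 1030.5, 1150 and 847 normalized counts in controls and 257, 2922, 0.678, 22.4 and 436 in cKO. In cKO replicate 3 it rests on a single read, in the library where Dcstamp, Ocstamp and Atp6v0d2 were highest.

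In the resorption and proton pump list 22 of 23 genes were tested, 1 was higher and 0 lower, and the median was -0.02. Calcr, the calcitonin receptor of mature osteoclasts, passed with 327, 0, 0 and 2.79 normalized counts in controls and 1832, 4468, 4127, 1226 and 235 in cKO. Control replicate 1 lies above cKO replicate 5, so the groups overlap. The log2 difference was 8.05 (SE 1.65, limma adjusted p = 0.0213), and 7.20 to 9.98 without each library in turn. The ratio of means was 28.8 and rests on control replicate 1, since the other 3 controls were at or near 0. Calcr is also a gene of muscle stem cells, and Pax7 and Myod1, which mark those cells and were picked after Calcr was seen, held 2.76 to 16.2 and 33.5 to 286 in controls and 82.0 to 1928 and 944 to 4380.04 in cKO. The part of muscle stem cells in the Calcr value was not tested. The Calcr call was lost without control replicate 2, 3 or 4 or cKO replicate 1, 3 or 4 (adjusted p up to 0.0607), with edgeR (log2 4.84, adjusted p = 0.116) and with DESeq2 (4.85, adjusted p = 0.0616).

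Of the inhibitors of osteoclast formation, 13 of 14 were tested, and none passed with limma in either direction. The median was 0.07. The pair of smallest p were Bcl6, a repressor of Nfatc1 and its targets, and Id3, an inhibitor of helix-loop-helix factors. Bcl6 held 1643, 1059, 1391 and 833 normalized counts in controls and 3937, 3508, 4703, 3501 and 1047 in cKO, with cKO replicate 5 again inside the control range (1.33, SE 0.41, adjusted p = 0.0743). Without that library Bcl6 passed (1.70, SE 0.22, adjusted p = 0.0011). Id3 differed by 0.63 (SE 0.25, adjusted p = 0.134) and also passed without it (0.78, adjusted p = 0.0301). In the authors' deposited table, where 17.1% of all genes passed, Bcl6 passed with a log2 fold change of 1.44 (adjusted p = 0.0040). Id3 did not pass there (0.69, adjusted p = 0.0606).

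Among 22 of 24 stromal factors that support or restrain osteoclasts, 0 were higher and 1 lower, and the median was -0.30. The one was Il6, a cytokine that raises RANKL in stromal cells, with 349, 331, 300.4 and 254 normalized counts in controls and 48.6, 19.5, 40.7, 44.8 and 93.9 in cKO. The groups are far apart and cKO replicate 5, though the highest of its group, stays below every control. The log2 difference was -2.77 (SE 0.50, a 6.83-fold fall, limma adjusted p = 0.0135), and it passed without each library in turn. Csf1, which encodes M-CSF, the other cytokine that osteoclast precursors need, was at 5676 to 11982 in controls and 7983 to 16979 in cKO (0.44, adjusted p = 0.308).

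Of 21 receptors and factors that regulate Tnfsf11 in stroma, 2 were higher and 2 lower, with a median of -0.13. Osmr, the oncostatin M receptor chain, held 6800.1, 6900.03, 7147 and 7210.3 normalized counts in controls and 3242, 2179, 2785, 3793 and 3740 in cKO, without overlap (-1.18, SE 0.16, limma adjusted p = 0.0044). Stat3, which carries signals of the IL-6 family, held 20110 to 21750 in controls and 13058 to 17632 in cKO (-0.47, SE 0.11, adjusted p = 0.0375). Il11ra1, the interleukin 11 receptor chain, went the other way, from 4102 to 5348 in controls to 7585 to 14201 in cKO (1.28, SE 0.19, adjusted p = 0.0054). Nr3c1, the glucocorticoid receptor, held 5042 to 7299 in controls and 7632 to 14453 in cKO (0.92, SE 0.19, adjusted p = 0.0213). For all 4 of these genes the groups do not overlap, so cKO replicate 5 is on the cKO side of every control. They were named because they passed on these same values, so the separation is no added support. Over all genes tested, 11.4% do not overlap in either direction. Osmr and Il11ra1 passed without each library in turn, whereas of these 9 fits Stat3 passed only in that without cKO replicate 5. Stat3 also missed with edgeR (adjusted p = 0.0525) and with no filter on low values (0.0506), and Nr3c1 was lost without control replicate 2, 3 or 4 or cKO replicate 1 or 4.

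Genes that varied most like each tested gene across the 9 libraries were listed by Pearson correlation of log2 values among 13390 genes, as a description of libraries that share depth and cell makeup. Picking the highest of so many genes over 9 libraries raises the correlations by itself, so their size is no test of likeness. Closest to Nfatc1 were Itga5 (0.995), Ap2m1 (0.986) and Dab2 (0.983). Closest to Tnfsf11 were Tm9sf1 (0.972), Dvl3 (0.961) and Saa3 (0.958). Tnfrsf11b was nearest to Syt15, Kcnd1 and Strada (0.954 to 0.945), and Tnfrsf11a to Gja5, Pxn and Ablim3 (0.945 to 0.933). Acp5 was nearest to Brd2, Smarca5 and Paxip1 (0.970 to 0.963), Ctsk to Rnf145, Glis1 and Ndrg4 (0.971 to 0.967), and Atp6v0d2 to Cyp3a13, Iqck and Eif2a (0.978 to 0.965). The 3 genes nearest to one member were in no case those nearest to another.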

How the data were processed

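Polyadenylated RNA of 4 control and 5 cKO libraries was sequenced in paired reads of 150 bases, per the labels' protocols, and all 9 columns were used. The authors deposited normalized counts (a signal, reads per gene scaled by a size factor). STAR, featureCounts, DESeq2 and mm39 are named in the submitters' processing notes, without versions; the sources used here do not give the strand setting or annotation. The authors' deposited table of their own comparison holds, per the file headers, mean signal, log2 fold change, its error, a score and p-values.

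Values were whole multiples of 1 read (tolerance 0.01), so whole reads were recovered, 43.5 to 87.2 M per library. Symbols came from RefSeq (GRCm38.p6), with 25275 of 27179 IDs matched, and exon lengths from GENCODE (GRCm38), so no gene coordinates on mm39 are given. Limma 3.58.1 in R 4.3.3 (eBayes with trend) was run on log2(normalized count + 1) of the 15832 genes with at least 10 normalized counts in at least 4 libraries. The test was two-sided, with Benjamini-Hochberg adjustment over all genes tested and a threshold of 0.05, and was tested on simulated data. Among the 21 alternatives were count tests on the recovered reads (edgeR 4.0.16, DESeq2 1.42.0). Fold changes on this scale compare means of log values: they understate the change of genes low throughout, and can exceed the ratio of means where some libraries are at 0. Intervals and floors cover counting error only and treat each read as independent.

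The members, lists and tests were chosen with earlier results of these data known. Named genes were all 10 members, Grem1 and Lepr, up to 3 passing genes per direction in each pathway list (or the 2 of smallest p), and the 3 genes most correlated with each tested member (mean of at least 50). Csf1r, Csf1, Pax7 and Myod1 were named after their values were seen. Of the pathway genes, Sirpb1a, Siglec15, Ctla4, Il1a and Il17a failed the filter.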

Additional observations from a re-analysis of the deposited data

Results flagged for a closer look

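Of 48 groups of libraries examined for 1 value far from the others (the gap to the nearest library as a share of the group's range, Dixon's 95% limits 0.829 for 4 and 0.710 for 5 libraries), 10 stood out. In the cKO group, replicate 3 was the low value for Tnfrsf11b (0.866) and Tnfrsf11a (0.806) and the high value for Dcstamp (1.0) and Ocstamp (1.0). Replicate 5 of that group was the low value for Lepr (0.807) and Bcl6 (0.803), and replicate 1 the high value for Oscar (1.0). Among controls, replicate 2 was the high value for Dcstamp (1.0) and Oscar (1.0), and replicate 3 the low value for Atp6v0d2 (0.861). A share of 1.0 means that every other library of the group had no read. The rate of about 1 in 20 that chance gives holds for values without such ties, so it is no measure for these 5 groups or for the total. The high values of Dcstamp, Ocstamp and Oscar rest on 2 to 70 reads.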

How the results depend on the processing

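Among the results for single members, 123 kept direction and side of the threshold, 12 weakened, 4 strengthened and 7 reversed, and among named pathway genes 165, 60, 5 and 1. Members called, 1 with all libraries, were 0 with no filter (4 at an unadjusted limma p under 0.05), 0 with edgeR (2) and 1 with DESeq2, which gave Acp5 no adjusted p. Leaving out each library in turn called 0 to 4 members, 3 to 35 pathway genes (9 with all libraries) and 377 to 3562 of all genes. All genes called were 786 with edgeR and 2546 with DESeq2, which called 24 pathway genes. Without control replicates 1 and 3 together 338 genes, 0 members (3 unadjusted) and 3 pathway genes were called with limma. With only libraries under 60 M reads, 1 cKO library, assumed to vary like the controls, was compared with 4 controls: 83 genes, 0 members (1 unadjusted) and 0 pathway genes (13 unadjusted) were called. There the log2 difference reversed to 0.46 for Tnfsf11, 1.10 for Acp5, 0.24 for Ctsk, -0.19 for Bcl6 and 0.88 for the Tnfsf11 to Tnfrsf11b ratio. Tnfrsf11a reversed to -1.79 with edgeR, -1.78 with DESeq2 and -0.65 without control replicate 2 or 4, its left-out range being -0.65 to 2.61. The cause was not tested. The ratio difference ranged from -1.84 to -0.70 over the left-out libraries. Of the calls, 61.7% were higher in cKO, 55.1% without cKO replicate 5, 68.2% to 74.9% without 1 control, and 82.8% without control replicates 1 and 3.

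Replicate numbers are shared between the groups, but libraries with the same number did not deviate together (correlations -0.011 to 0.070) and none correlated best with its own number. A replicate block, in which cKO replicate 5 has no partner, called 2715 genes, 2 members (Acp5 and Nfatc1) and 28 pathway genes.

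Dcstamp, Ocstamp and Oscar were seen in 2 or 3 libraries each, and the part of depth in this was not tested. Dcstamp and Ocstamp had 46 and 70 reads in cKO replicate 3 and 0 in cKO replicates 1, 2 and 4, all of 76.3 to 87.2 M reads. With every library thinned to the read total of the shallowest, 1 member, 9 pathway genes and 1159 of all genes were called.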
